A study of Homo sapiens with 24 samples.

Results

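The BCL2 family genes were followed across growing and RAS-senescent fibroblasts with and without knockdown of *HMGA1*. Members were taken by symbol through their Entrez identifiers and comprised 10 of the 25702 identifiers counted: *BCL2*, *BCL2L1*, *BCL2L2* and *MCL1* as pro-survival members, *BAX* and *BAK1* as effectors, and *BCL2L11*, *PMAIP1*, *BBC3* and *BID* as BH3-only members. Effectors and BH3-only genes were treated together as the 6 pro-death members. The rule took them by gene symbol alone. RNA-seq libraries were made from IMR90 cells, a human diploid lung fibroblast line, in 4 groups of 6 biological replicates. All 24 libraries came from cells carrying a retroviral ER:HRAS(G12V) transgene, an oncogenic RAS fused to the oestrogen receptor that 4-hydroxytamoxifen (4OHT) switches on, so the controls carried it too. "Growing" cells held the empty MSCV vector and no 4OHT, "shHMGA1" cells held an MSCV miR30 hairpin and no 4OHT, "RIS" cells (RAS-induced senescence) held the empty vector and were kept in 4OHT for 6 days, and "RIS+shHMGA1" cells held the hairpin under the same treatment. A single hairpin construct was used, and no group without the transgene was analysed here.

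BCL2 proteins govern the permeability of the mitochondrial outer membrane. Pro-survival members (BCL2, BCL-XL from *BCL2L1*, BCL-W from *BCL2L2*, MCL1) hold the effectors BAX and BAK1 in check, and BH3-only proteins occupy the groove of the pro-survival proteins or engage the effectors directly. When BAX and BAK1 assemble into pores, cytochrome c leaves the mitochondria and caspases are activated. Senescent fibroblasts are known for resisting apoptosis, and drugs that occupy the BH3 groove of pro-survival proteins kill some senescent cells.

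What the members share in sequence is the BH3 motif, the short helix through which they bind each other. The coding sequence of each canonical transcript was scanned for a leucine or methionine codon, any 3 codons, a glycine or alanine codon and an aspartate codon. Each of the 10 members held exactly 1 match, lying unbroken within a coding exon. The pattern is short and was also present in 29.0% of the 19420 coding sequences scanned, so a match describes the sequence and does not identify a BH3 motif by itself. The 27 bases (9 codons) from each match are shown because the BH3 motif is what the members share in sequence. They were read from GRCh37 (hg19) with GENCODE gene models and are written 5′ to 3′ on the coding strand, with the first hydrophobic codon and the glycine-aspartate pair (alanine-aspartate in *BBC3*) in capitals.
BCL2, residues 97 to 105, chr18:60985585-60985611, minus strand: CTCcgccaggccGGCGACgacttctcc
BCL2L1, residues 90 to 98, chr20:30309728-30309754, minus strand: CTGagggaggcaGGCGACgagtttgaa
BCL2L2, residues 46 to 54, chr14:23777112-23777138, plus strand: ATGcgggcagctGGAGATgagttcgag
MCL1, residues 213 to 221, chr1:150551344-150551370, minus strand: TTAcgacgggttGGGGATggcgtgcag
BAX, residues 63 to 71, chr19:49459044-49459070, plus strand: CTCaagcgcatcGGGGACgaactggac
BAK1, residues 78 to 86, chr6:33543167-33543193, minus strand: CTCgccatcatcGGGGACgacatcaac
BCL2L11, residues 152 to 160, chr2:111907680-111907706, plus strand: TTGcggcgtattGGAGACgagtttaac
PMAIP1, residues 29 to 37, chr18:57569905-57569931, plus strand: CTCaggagatttGGAGACaaactgaac
BBC3, residues 141 to 149, chr19:47729839-47729865, minus strand: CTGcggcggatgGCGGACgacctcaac
BID, residues 90 to 98, chr22:18222184-18222210, minus strand: CTCgcccaggtcGGGGACagcatggac

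Total counts ran from 8698070 to 23103424 per library with a median of 10604084. In the knockdown check, *HMGA1* lay at 54.4 to 262 CPM (counts scaled to sequencing depth with TMM library sizes) in hairpin libraries and at 639 to 861 CPM in vector libraries, so the hairpin labels held throughout. Fibroblast markers (9 of 9 detected) summed to 6149 to 45461 CPM, whereas the summed epithelial, endothelial and leukocyte markers reached at most 1.68, 2.65 and 1.38 CPM, with *CDH1*, *KRT5* and *SFTPC* under 1 CPM in every library. Growing replicate 4 and RIS replicate 2 went against their labels, each resembling the other's group in proliferation and secretome genes. For 5 proliferation genes, the sum was 82.4 CPM in growing replicate 4 against 422 to 656 CPM in the other growing libraries, and 516 CPM in RIS replicate 2 against 63.2 to 86.7 CPM in the other RIS libraries. For 4 secretome cytokines (*IL1A*, *IL1B*, *IL6*, *CXCL8*), it was 73686 CPM in growing replicate 4 against 1879 to 9095 CPM, and 2268 CPM in RIS replicate 2 against 24401 to 53528 CPM. Whether the 2 libraries were exchanged was not tested. Both were kept as labelled, so values of the vector groups with all libraries include libraries that went against their labels, and values whose call changes without them are given both ways.

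Once those 2 libraries were left out, RAS activation was accompanied by the same 4 departures in both backgrounds. *BCL2* was lower and *MCL1*, *BAK1* and *BID* were higher, with no overlap between the groups. The share of all genes without such overlap is not given here, so the lack of overlap describes these members only. Genes are termed called where the false discovery rate (FDR) was under 0.01 and the log2 fold change exceeded 0.58 in either direction. Of the 9 members with enough counts to be tested (*BCL2L11* was not), RIS+shHMGA1 against shHMGA1 called 2, *BCL2* (lower) and *MCL1* (higher), beside 39.1% of all 13356 genes tested. By FDR alone, 4 of 9 passed, with *BID* and *BAK1* added, beside 45.6% of all genes. RIS against growing called 0 of 9, beside 0.0% of all genes by edgeR, with 4 of 9 at an unadjusted p under 0.05, beside 33.0% of all genes. DESeq2 called 1 (*MCL1*), beside 6.21% of all genes. Without growing replicate 4 and RIS replicate 2, the same comparison called 4 of 9, beside 39.7% of all genes, and RIS+shHMGA1 against shHMGA1 called 2 of 9, beside 44.4%. The 4 of 9 in RIS against growing was not far above the share of all genes. The 2 of 9 in RIS+shHMGA1 against shHMGA1 was below it, with and without those libraries.

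By edgeR with all libraries, the hairpin comparisons gave no calls among the members. shHMGA1 against growing called 0 of 9 by edgeR, beside 0.27% of all genes, or 2.59% without the departing libraries. DESeq2 also called 0 of 9, beside 0.734% of all genes. By edgeR, 1 member (*PMAIP1*) had an unadjusted p under 0.05, beside 13.2% of all genes. RIS+shHMGA1 against RIS called 0 of 9 by edgeR, beside 2.55% of all genes, or 12.5% without the departing libraries, with *BCL2* and *PMAIP1* at an unadjusted p under 0.05, beside 49.8% of all genes, a larger share than that of the members. DESeq2 called 1 there (*PMAIP1*), beside 11.5% of all genes. The interaction of hairpin and RAS, which asks whether the response to 4OHT differed with and without the hairpin, called 0 of 9 beside 0.0% of all genes, or 0.00745% without the departing libraries, and 0 members had an unadjusted p under 0.05, beside 10.3% of all genes. DESeq2 called 0.0225% of all genes. RIS+shHMGA1 against growing combines both changes and called *BCL2* (lower) among 9, beside 45.9% of all genes. Without the departing libraries it called 3 (*BCL2*, *BAK1*, *PMAIP1*), beside 56.9%. All of these comparisons reuse the same 4 groups of libraries and are not independent of each other.

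**Figure D1:**
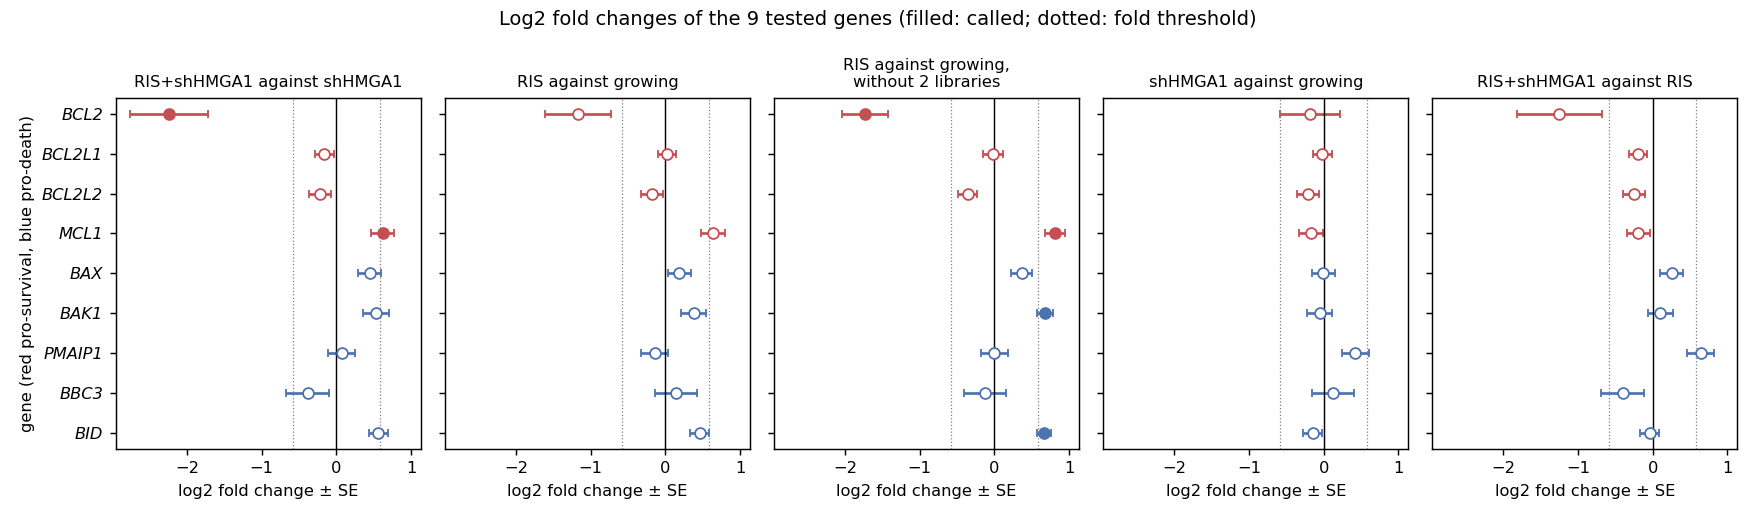
Log2 fold change (x axis) of the 9 tested BCL2 family genes (y axis; pro-survival red, pro-death blue) in 4 comparisons, with RIS against growing also shown without growing replicate 4 and RIS replicate 2. Bars are standard errors, filled points were called, and dotted lines mark a log2 fold change of 0.58 in either direction. *BCL2* lies far to the left in both 4OHT comparisons and *MCL1* to the right. In RIS+shHMGA1 against RIS *BCL2* stands furthest left at −1.25 and *PMAIP1* furthest right at 0.64, neither of them called.

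Among the pro-survival members, *BCL2* (Entrez 596, chr18:60790579-60987361, minus strand, canonical transcript of 3 exons), the founder of the family, was sparsely transcribed and fell with 4OHT. It had between 0 and 33 counts per library. Growing libraries had lowest, median and highest levels of 0, 1.60 and 2.40 CPM, and shHMGA1 libraries of 0.878, 1.21 and 2.04 CPM. With 4OHT they were 0.211, 0.623 and 1.45 CPM in RIS libraries and 0.146, 0.299 and 0.381 CPM in RIS+shHMGA1 libraries. All RIS+shHMGA1 libraries lay below all shHMGA1 libraries. The extremes of the vector groups were the departing libraries, with 0 counts in growing replicate 4, which allows up to 0.386 CPM, and 1.45 CPM in RIS replicate 2.

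The log2 fold change of *BCL2* was −2.24 ± 0.52 (SE) in RIS+shHMGA1 against shHMGA1 (adjusted p = 0.0013). Summed over the 6 libraries of each group, 16 counts stood against 108, a depth-corrected ratio of 0.201 (95% interval 0.111 to 0.341, covering counting error only). RIS against growing gave −1.17 ± 0.44 (adjusted p = 0.070), and −1.73 ± 0.31 (adjusted p = 4.3e-05) without the departing libraries, where every RIS library was below every growing library. The pooled ratio there was 0.441 (0.307 to 0.623), or 0.310 (0.199 to 0.466) without the departing libraries. Between RIS+shHMGA1 and RIS the log2 fold change was −1.25 ± 0.57 (adjusted p = 0.083), and −0.89 ± 0.43 (adjusted p = 0.096) without RIS replicate 2 and growing replicate 4. The interaction was −1.07 ± 0.70 (adjusted p = 0.44), and −0.52 ± 0.49 (adjusted p = 0.99) without those libraries, so a larger fall with the hairpin was not shown. In bulk RNA, fewer cells containing a transcript and less of it per cell cannot be told apart.

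*MCL1* (Entrez 4170, chr1:150533371-150552214, minus strand, 3 exons), whose short-lived protein binds BAK1 and NOXA, moved the other way. Lowest, median and highest levels were 272, 337 and 412 CPM in growing libraries and 279, 295 and 348 CPM in shHMGA1 libraries. With 4OHT they reached 313, 500.0 and 692 CPM (RIS) and 372, 442 and 559.8 CPM (RIS+shHMGA1). RIS+shHMGA1 libraries were all above shHMGA1 libraries, and the lowest RIS value and the highest growing value were again the departing libraries. The log2 fold change was 0.62 ± 0.16 in RIS+shHMGA1 against shHMGA1 (adjusted p = 0.0025), higher in 6 of 6 same-numbered libraries. It was 0.56 without RIS+shHMGA1 replicate 5 and 0.56 without replicate 6, which is under the fold threshold in each case, while the FDR was passed. RIS against growing gave 0.64 ± 0.16 (adjusted p = 0.018), and 0.81 ± 0.14 (adjusted p = 1.7e-05) without the departing libraries. The hairpin comparisons gave −0.17 ± 0.16 in growing cells and −0.19 ± 0.16 in RIS cells (adjusted p = 0.69 and 0.33), and −0.11 ± 0.13 and −0.30 ± 0.13 without the departing libraries (adjusted p = 0.54 and 0.062).

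*BCL2L1* (Entrez 598, chr20:30252255-30311792, minus strand), which encodes the pro-survival BCL-XL, and *BCL2L2* (Entrez 599, chr14:23767999-23780960, plus strand), which encodes BCL-W, were called in none of these comparisons. The 4 group medians of *BCL2L1* ran from 191 CPM in RIS+shHMGA1 to 217 CPM in growing libraries, and the 24 libraries from 146 to 249 CPM. All 4 groups overlapped. Its log2 fold change was −0.16 ± 0.12 in RIS+shHMGA1 against shHMGA1 (adjusted p = 0.26) and 0.02 ± 0.12 in RIS against growing (adjusted p = 0.91). *BCL2L1* in RIS+shHMGA1 against RIS was lower in 6 of 6 same-numbered libraries at −0.20 ± 0.12 (adjusted p = 0.20). *BCL2L2* ran from 39.2 to 83.5 CPM, with medians from 44.0 CPM in RIS+shHMGA1 to 61.0 CPM in growing libraries. *BCL2L2* passed the FDR in RIS+shHMGA1 against growing without the departing libraries, at −0.51 ± 0.13 (adjusted p = 0.00077), and stayed under the fold threshold. An antisense gene, *ABALON*, covers 41.3% of the exonic bases of *BCL2L1*, and the readthrough gene *BCL2L2-PABPN1* covers 16.8% of those of *BCL2L2* on the same strand. The strand setting of the counting is not given in the sources used here, so reads of these neighbours cannot be told apart.

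Of the effectors, *BAK1* passed the FDR with 4OHT in the hairpin background with all libraries, and *BAX* did so only without the departing libraries. Neither departing library is in that comparison, but all 4 groups share 1 estimate of the spread. Leaving them out kept the log2 fold changes there at 0.53 (*BAK1*) and 0.45 (*BAX*). The standard errors went from 0.17 to 0.10 and from 0.15 to 0.13. *BAK1* (Entrez 578, chr6:33540324-33548070, minus strand), the pore former that sits on the mitochondrial outer membrane, had lowest, median and highest levels of 12.7, 14.6 and 26.1 CPM in growing libraries and 13.8, 16.1 and 16.6 CPM in shHMGA1 libraries. Under 4OHT these were 11.8, 23.1 and 24.2 CPM (RIS) and 18.3, 22.9 and 26.9 CPM (RIS+shHMGA1). The highest growing value was growing replicate 4 and the lowest RIS value was RIS replicate 2. Apart from those, no 4OHT library overlapped an untreated one. Its log2 fold change in the hairpin background (RIS+shHMGA1 against shHMGA1) was 0.53 ± 0.17 (adjusted p = 0.0099), past the FDR and under the fold threshold. For RIS against growing it was 0.38 ± 0.17 (adjusted p = 0.12), and 0.68 ± 0.11 (adjusted p = 9.2e-06) without the departing libraries. Between RIS+shHMGA1 and RIS it was 0.10 ± 0.17 (adjusted p = 0.63). Between RIS+shHMGA1 and growing it was 0.48 ± 0.17 (adjusted p = 0.016), and 0.66 ± 0.10 (adjusted p = 4.3e-06) without those libraries, where it was called.

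*BAX* (Entrez 581, chr19:49458072-49465055, plus strand), the effector that moves from the cytosol to mitochondria, had a median of 103 CPM in growing and in shHMGA1 libraries, 122 CPM in RIS libraries and 138 CPM in RIS+shHMGA1 libraries, within a range of 69.8 to 164 CPM. Neighbouring groups overlapped. The log2 fold change in RIS+shHMGA1 against shHMGA1 was 0.45 ± 0.15, with 6 of 6 same-numbered libraries higher (adjusted p = 0.015), and 0.45 ± 0.13 (adjusted p = 0.0038) without the departing libraries, which passed the FDR and stayed under the fold threshold. In RIS against growing it was 0.19 ± 0.15 (adjusted p = 0.40), or 0.36 ± 0.14 (adjusted p = 0.030) without the departing libraries. RIS+shHMGA1 against growing gave 0.44 ± 0.15 (adjusted p = 0.014), or 0.57 ± 0.14 (adjusted p = 0.00061) without those libraries, again under the fold threshold. *BAX* was called in that comparison with voom (0.589). It was also called with the replicate number as a block and both departing libraries left out (0.584).

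**Figure D2:**
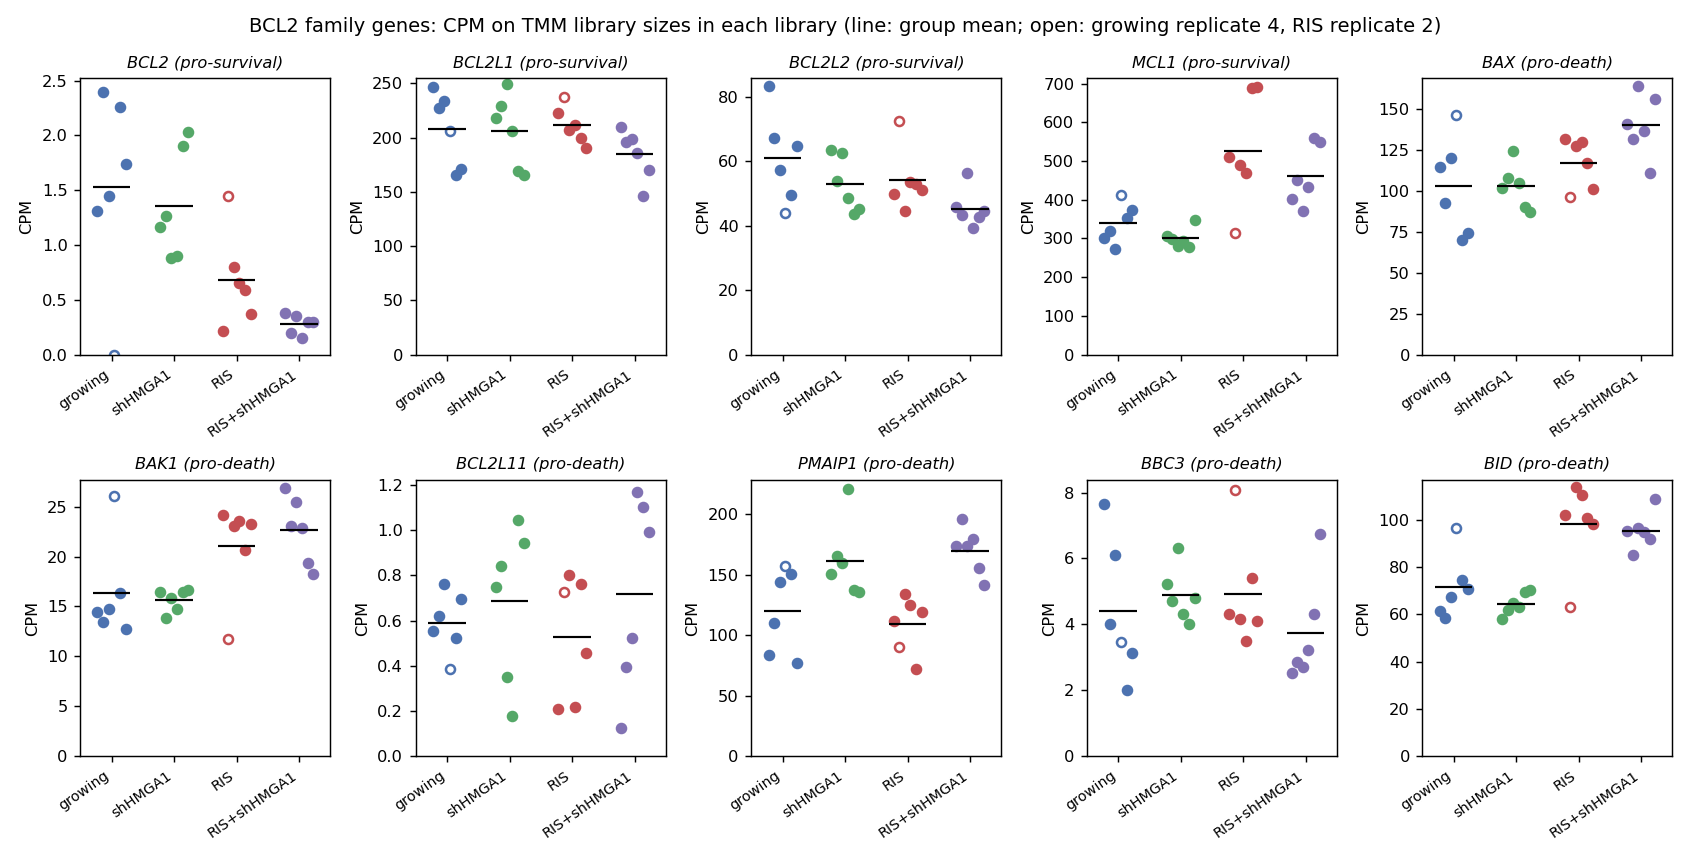
CPM on TMM library sizes (y axis, linear from 0) of each BCL2 family gene in the 24 libraries, by group (x axis). Lines are group means, and open points are growing replicate 4 and RIS replicate 2. With those aside, *BCL2* is lower and *MCL1*, *BAK1* and *BID* are higher in every 4OHT library than in every untreated library of the same vector, and all RIS+shHMGA1 points of *PMAIP1* lie above all RIS points.

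Of the BH3-only members, *BID* followed 4OHT. The log2 fold change of *PMAIP1* with the hairpin was above 0 in growing and in RIS cells, and was called in neither by edgeR with all libraries. *BID* (Entrez 637, chr22:18216904-18257536, minus strand) encodes the protein that caspase-8 cleaves to link death receptors to mitochondria. The lowest, median and highest levels were 58.3, 68.9 and 96.3 CPM in growing libraries and 58.1, 63.9 and 70.1 CPM in shHMGA1 libraries, against 63.2, 101 and 114 CPM with RIS and 85.2, 95.1 and 109 CPM with RIS+shHMGA1. RIS+shHMGA1 did not overlap shHMGA1, and the vector groups overlapped only through the departing libraries. The log2 fold change was 0.56 ± 0.13 in RIS+shHMGA1 against shHMGA1 (adjusted p = 0.0010), just under the fold threshold, which it passed with RLE normalisation (0.59) and with DESeq2 (0.59). In RIS against growing it was 0.46 ± 0.13 (adjusted p = 0.024), and 0.66 ± 0.09 (adjusted p = 9.1e-07) without the departing libraries. Between RIS+shHMGA1 and RIS it was −0.04 ± 0.13 (adjusted p = 0.81).

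*PMAIP1* (Entrez 5366, chr18:57567228-57571537, plus strand) encodes NOXA, which pairs with MCL1. Vector libraries had lowest, median and highest levels of 76.8, 127 and 157 CPM (growing) and 72.2, 116 and 134 CPM (RIS). Hairpin libraries had 136, 155 and 221 CPM (shHMGA1) and 141, 174 and 196 CPM (RIS+shHMGA1). Every RIS+shHMGA1 library lay above every RIS library, and 6 of 6 same-numbered libraries were higher. The share of all genes without such overlap is not given here. By the different measure of an unadjusted p under 0.05 by edgeR, 49.8% of all genes passed in that comparison. The log2 fold change of that comparison was 0.64 ± 0.18 (adjusted p = 0.016), which misses the FDR of 0.01. It was 0.59 ± 0.17 (adjusted p = 0.011) without the departing libraries. In growing cells the hairpin comparison gave 0.42 ± 0.18 (adjusted p = 0.30), or 0.51 ± 0.17 (adjusted p = 0.042) without the departing libraries. The 4OHT comparisons gave 0.07 ± 0.18 with the hairpin and −0.14 ± 0.18 without it (adjusted p = 0.73 and 0.58), and the interaction was 0.22 ± 0.25 (adjusted p = 0.62). Without the departing libraries, the value without the hairpin was −0.0049 ± 0.18 (adjusted p = 0.98) and the interaction 0.079 ± 0.24 (adjusted p = 0.999). RIS+shHMGA1 against growing gave 0.50 ± 0.18 (adjusted p = 0.018), and 0.59 ± 0.17 (adjusted p = 0.0038) without them, where it was called.

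*BBC3* (Entrez 27113, chr19:47724079-47736023, minus strand), which encodes PUMA, and *BCL2L11* (Entrez 10018, chr2:111876955-111926021, plus strand), which encodes BIM, gave no calls by edgeR, *BCL2L11* because it had too few counts to be tested. With voom, *BBC3* was called at −0.66 in RIS+shHMGA1 against shHMGA1. *BBC3* ran from 2.00 to 8.07 CPM, with medians between 3.04 CPM in RIS+shHMGA1 libraries and 4.76 CPM in shHMGA1 libraries, and all groups overlapped. Its log2 fold change was −0.39 ± 0.29 in RIS+shHMGA1 against shHMGA1 (adjusted p = 0.24), 0.14 ± 0.28 in RIS against growing (adjusted p = 0.73) and −0.40 ± 0.29 in RIS+shHMGA1 against RIS (adjusted p = 0.26). Without the departing libraries, the vector comparison gave −0.13 ± 0.28 and the comparison within 4OHT −0.20 ± 0.28 (adjusted p = 0.70 and 0.58). *BCL2L11* had 1 to 17 counts per library and failed the low-count filter. Pooled over 6 libraries, the counts were 49 (growing), 55 (shHMGA1), 36 (RIS) and 40 (RIS+shHMGA1). The depth-corrected ratio was 0.985 (95% interval 0.639 to 1.51) for RIS+shHMGA1 against shHMGA1 and 0.928 (0.586 to 1.46) for RIS against growing. A difference was not detectable at this depth. Part of an antisense gene, *MIR4435-2HG*, covers 10.8% of the exonic bases of *BCL2L11*.

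The pro-survival members held opposite changes, and the median of the 5 tested pro-death members was above 0 with 4OHT. In RIS+shHMGA1 against shHMGA1 the median log2 fold change was −0.19 over the 4 pro-survival members and 0.45 over the 5 tested pro-death members, against −0.02 over all genes. The corresponding medians in RIS against growing were −0.08, 0.19 and −0.01, and −0.19, 0.36 and −0.01 without the departing libraries. For the hairpin they were −0.18, −0.0047 and −0.03 in growing cells and −0.22, 0.10 and −0.06 in RIS cells. Leaving out those libraries turned the sign of the pro-death median in both, to 0.12 in growing cells and −0.019 in RIS cells. A pro-survival median of 4 genes covers opposite changes, since *BCL2* fell and *MCL1* rose in RIS+shHMGA1 against shHMGA1. It also leaves out *BCL2A1*, a further pro-survival gene, which is given below. The pro-death median covers *BBC3*, at −0.39 in that comparison, where *BAX*, *BAK1*, *BID* and *PMAIP1* were above 0. It leaves out *BMF*, a BH3-only gene that was called lower there. *BMF* was also called lower in RIS against growing without the departing libraries.

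Levels were compared between members only after dividing by the length of the canonical transcript. The medians over the 24 libraries, in CPM per kilobase, were 145 for *BAX*, 94.5 for *MCL1*, 80.0 for *BCL2L1*, 75.1 for *PMAIP1* and 36.7 for *BID*. They were 14.3 for *BCL2L2*, 8.04 for *BAK1*, 2.30 for *BBC3*, 0.129 for *BCL2L11* and 0.122 for *BCL2*. *BCL2L1* and *PMAIP1* were not separated, since *PMAIP1* was the lower of the pair in only 13 of 24 libraries. *BCL2L11* and *BCL2* were not separated either, with *BCL2* below in 10 of 24. From *BCL2L2* down to *BCL2L11*, each gene was below the one before it in all 24 libraries. The first place of *BAX* rests on a canonical transcript of 795 bases, short beside those of the others. Of the 4 pro-survival members, *MCL1* and *BCL2L1* thus had the highest levels per kilobase. The order of *BCL2* and *BCL2L11* depended on the group, with means of 0.222 and 0.116 CPM per kilobase in growing libraries and 0.0404 and 0.141 in RIS+shHMGA1 libraries.

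Ratios of a pro-survival to a pro-death gene within a library need no choice of library size, and were compared between groups only, with no test. They describe the RNA of each pair and not the balance of the whole family. Among the genes left out is *BCL2A1*, a further pro-survival gene, at 428 to 729 CPM in RIS+shHMGA1 libraries. For *BCL2L1*/*BAX*, the mean log2 ratio of CPM was 1.05 ± 0.30 (SD, n = 6) in growing libraries and 1.00 ± 0.08 (n = 6) in shHMGA1 libraries, against 0.86 ± 0.23 (n = 6) with RIS and 0.40 ± 0.18 (n = 6) with RIS+shHMGA1. The RIS+shHMGA1 libraries, at 0.13 to 0.58, lay below all shHMGA1 libraries (0.91 to 1.1) and all RIS libraries (0.70 to 1.31). Growing replicate 4 was at 0.50, within their range, and RIS replicate 2 was at 1.31. Without these, the growing mean was 1.16 ± 0.13 and the RIS mean 0.77 ± 0.09 (n = 5 each).

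The log2 ratio of *BCL2* to *BAX* was −5.69 ± 0.68 in growing (n = 5, since growing replicate 4 had no *BCL2* count), and −6.31 ± 0.69 in shHMGA1 libraries. With 4OHT the log2 ratio was −7.67 ± 1.06 in RIS libraries (−7.99 ± 0.78 without RIS replicate 2, n = 5) and −9.04 ± 0.52 in RIS+shHMGA1 libraries. That of *MCL1* to *PMAIP1* was 1.54 ± 0.48, 0.91 ± 0.31, 2.26 ± 0.56 and 1.43 ± 0.37 in the same order, so its mean was higher with 4OHT within each vector and lower with the hairpin within each treatment. Overlap remained between RIS+shHMGA1 (1.1 to 1.96) and RIS (1.80 to 3.25). That of *MCL1* to *BBC3* was 5.47 to 6.18 in shHMGA1 and 6.35 to 7.31 in RIS+shHMGA1 libraries, without overlap. The vector groups overlapped, at 5.30 to 7.46 in growing and 5.28 to 7.40 in RIS libraries (6.88 to 7.40 without RIS replicate 2). That of *BCL2L1* to *BCL2L11* had group means between 8.34 and 8.85 with SDs of up to 1.38, and rests on the few *BCL2L11* counts.

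**Figure D3:**
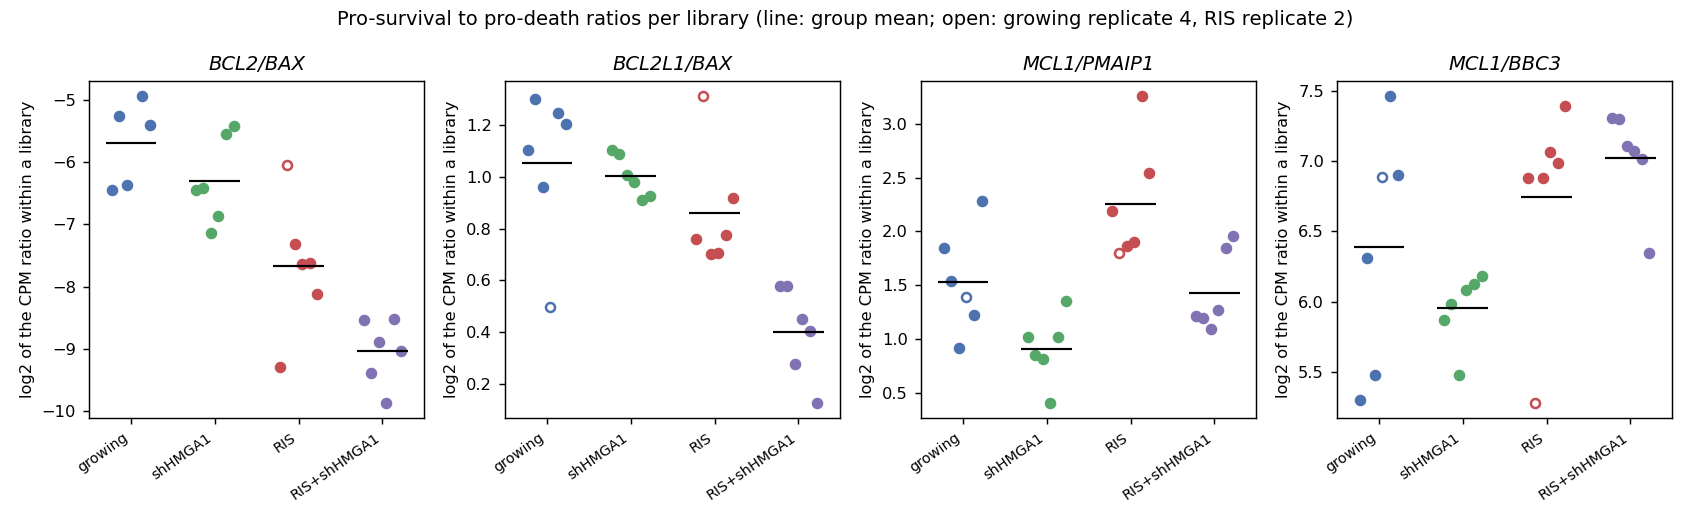
Log2 ratio of CPM within each library (y axis) for 4 pairs of a pro-survival and a pro-death gene, by group (x axis). Lines are group means, and open points are growing replicate 4 (no *BCL2*/*BAX* value, since *BCL2* was at 0) and RIS replicate 2. *BCL2L1*/*BAX* in RIS+shHMGA1 libraries (0.13 to 0.58) lies below every RIS and shHMGA1 library.

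The wider apoptosis pathway was described by 6 lists holding 58 genes, of which 49 were tested. Of these, 11 rose and 4 fell in RIS+shHMGA1 against shHMGA1, beside 39.1% of all genes called. Without the departing libraries 12 rose and 4 fell, beside 44.4%. With the vector (RIS against growing), 0 were called, beside 0.0% of all genes. Without the departing libraries 12 rose and 6 fell, beside 39.7%. In shHMGA1 against growing, 0 were called, beside 0.27%. Without the departing libraries *BCL2A1* was higher and *FOXO3* lower, beside 2.59%. Among RIS+shHMGA1 and RIS libraries, only *FOXO3* was called, beside 2.55%. Without the departing libraries 5 were higher (*BCL2A1*, *CYCS*, *DIABLO*, *DDIT3*, *VDAC3*) and *FOXO3* lower, beside 12.5%. These counts were not tested against the shares of all genes.

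Other BCL2 family genes (9 of 14 tested) gave 3 higher and 1 lower in RIS+shHMGA1 against shHMGA1, beside 39.1% of all genes called. *BCL2A1*, a further pro-survival gene and a target of inflammatory signalling, changed most. It ran from 8.38 to 26.1 CPM in shHMGA1 and from 428 to 729 CPM in RIS+shHMGA1 libraries, a log2 fold change of 5.30 ± 1.26 (adjusted p = 0.0015). *BCL2A1* was at 447 CPM in growing replicate 4, where the other growing libraries had at most 5.73 CPM, and at 3.17 CPM in RIS replicate 2, where the others had 103 to 298 CPM. Without these libraries, *BCL2A1* was 1.44 ± 0.32 higher on the log2 scale in RIS+shHMGA1 than in RIS (adjusted p = 0.0023) and 2.19 ± 0.38 higher in shHMGA1 than in growing libraries (adjusted p = 0.00076), whereas with them these values were 1.70 ± 1.07 and −2.42 ± 1.11 (adjusted p = 0.20 and 0.35). The mitophagy receptors *BNIP3L* and *BNIP3* rose by 1.74 ± 0.37 and 1.07 ± 0.31, and *BMF*, a BH3-only gene, fell with a log2 fold change of −0.92 ± 0.22.

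Caspase and apoptosome genes (14 of 15 tested) gave 5 higher and 1 lower in the same comparison, beside 39.1% of all genes called. *CYCS*, encoding cytochrome c, went from 110 ± 12.5 to 246 ± 52.3 CPM (SD, n = 6 each; log2 fold change 1.16 ± 0.29, adjusted p = 0.0020). *CASP8*, the initiator caspase of death receptors, rose by 1.14 ± 0.28 and *DIABLO*, which relieves caspase inhibition, by 1.07 ± 0.27, while *CASP2* fell with a log2 fold change of −1.19 ± 0.25. Without the departing libraries, *CYCS* and *DIABLO* were also higher in RIS+shHMGA1 than in RIS (0.76 ± 0.19 and 0.71 ± 0.16, adjusted p = 0.0049 and 0.0029). The proteins of both genes reside between the mitochondrial membranes and leave through the pores that BAX and BAK1 form.

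Among 6 caspase inhibitor genes, only *BIRC5* was called in RIS+shHMGA1 against shHMGA1, with a log2 fold change of −2.41 ± 0.43 (adjusted p = 0.00027). It encodes survivin, which also serves in mitosis, and the proliferation genes were lower in the same libraries, at 76.7 to 111 CPM in RIS+shHMGA1 against 462 to 782 CPM in shHMGA1. Their part in its fall was not tested. Among 9 tested of 11 death receptor genes, *TNFRSF10D*, a decoy receptor for TRAIL, rose by 1.39 ± 0.22 (adjusted p = 0.00020). Of 8 tested of 9 genes that control MCL1 or BH3-only proteins, *DDIT3* (CHOP, a stress factor that acts on BH3-only genes) rose by 1.90 ± 0.35 and *MARCHF5*, a ubiquitin ligase for MCL1 complexes, by 0.85 ± 0.20, and *E2F1* fell with a log2 fold change of −2.24 ± 0.42. *FOXO3*, a transcription factor that acts on *BCL2L11*, *PMAIP1* and *BBC3*, was lower with the hairpin at −0.78 ± 0.18 in RIS cells (adjusted p = 0.0099), and at −0.76 ± 0.18 in growing cells (adjusted p = 0.042), or −0.89 ± 0.14 (adjusted p = 0.00038) without the departing libraries.

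The 3 voltage-dependent anion channel genes, which encode the main channels of the outer membrane, gave 0 calls in RIS+shHMGA1 against shHMGA1 with all libraries. *VDAC3* was at 0.77 ± 0.27 (adjusted p = 0.019), and was called at 0.77 ± 0.20 (adjusted p = 0.0014) without the departing libraries. In RIS+shHMGA1 against RIS it was 1.03 ± 0.28 (adjusted p = 0.015), and 0.92 ± 0.21 (adjusted p = 0.0028) without them.

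**Figure D4:**
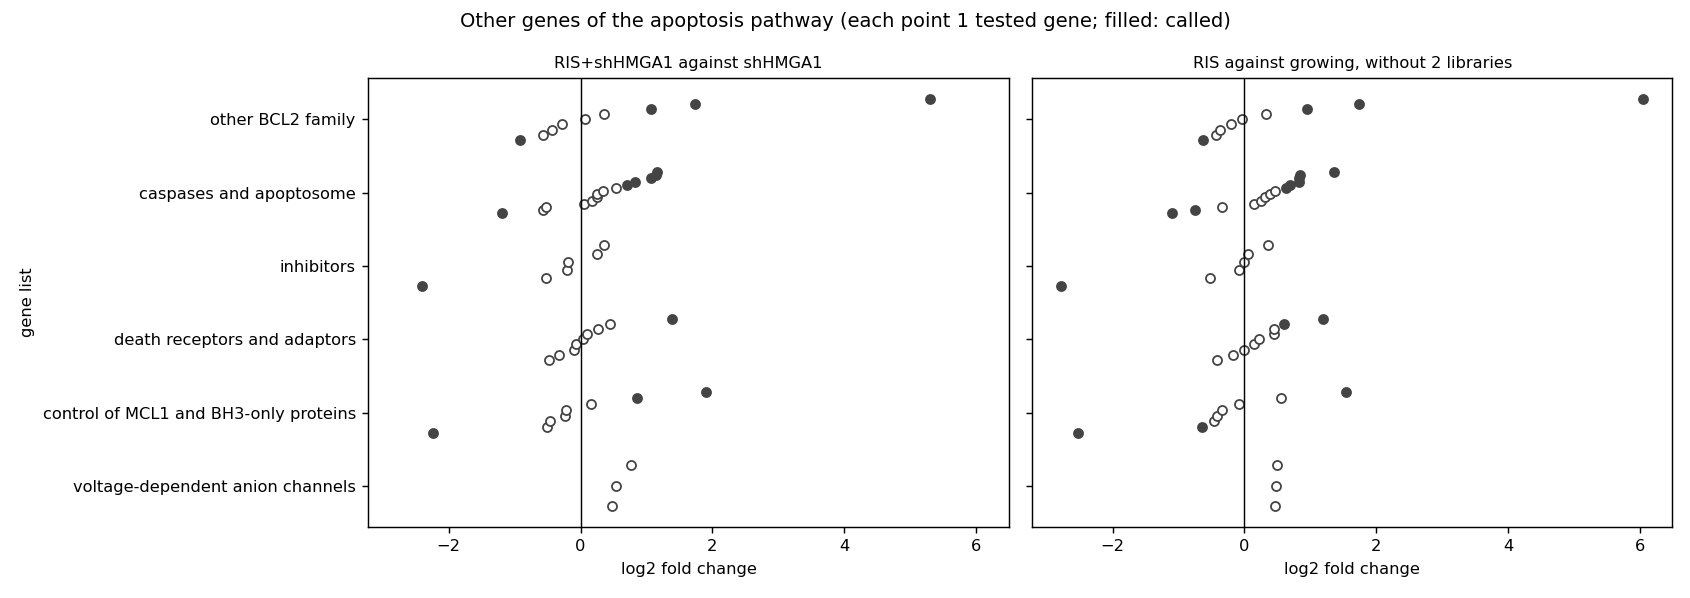
Log2 fold change (x axis) of the tested genes of 6 apoptosis lists (y axis), 1 point per gene, in RIS+shHMGA1 against shHMGA1 and in RIS against growing without growing replicate 4 and RIS replicate 2. Filled points were called: 11 higher and 4 lower on the left, 12 higher and 6 lower on the right, with *BCL2A1* furthest to the right in both panels.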

How the data were processed

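RNA was prepared from 24 cultures, 6 biological replicates per group, as stranded mRNA libraries. Per the submitters' processing notes and the study's methods, the authors used cutadapt 1.10.0, mapped reads to hg19 with STAR 2.5.0b and counted them with Rsubread. The deposited values are raw counts per Entrez identifier, without normalisation. The annotation, Rsubread version and strand setting are not given in the sources used here. Of the 25702 identifiers, 23696 matched a RefSeq symbol.

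The members and lists were chosen with earlier results of these data known. The 24 libraries entered 1 fit of 4 group means in edgeR 4.0.16 (R 4.3.3, limma 3.58.1), with filterByExpr, TMM library sizes and the quasi-likelihood test. Adjusted p-values are Benjamini-Hochberg values over all 13356 genes, and errors of fold changes are standard errors. CPM and log2 CPM (prior count 2) were computed from the deposited counts. The 10 members were all named, as was *HMGA1*. From each list, at most the 3 largest called changes in each direction in RIS+shHMGA1 against shHMGA1 were named, with any gene called in a hairpin comparison. A further list is not reported here.

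Alternatives were RLE normalisation, DESeq2 1.42.0, no low-count filter, at least 1 CPM in 6 samples, the replicate number as a block, the samples of a comparison only, an FDR of 0.05, voom with sample weights, leaving out each library and leaving out both departing libraries. The scripts were tested on simulated data. No pair of same-group libraries agreed within sampling noise (lowest chi-square per degree of freedom 2.81 over 60 pairs). The lowest total, 8698070 counts, puts 3 counts, the limit that a count of 0 allows, well under 1 CPM. Intervals of pooled counts are 95% exact intervals and cover counting error only.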

Additional observations from a re-analysis of the deposited data

Results flagged for a closer look

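In 5 of 40 tests of a member within a group of 6 libraries, 1 library stood apart by Dixon's ratio, the gap to its nearest neighbour divided by the range, above the 95% critical value. Chance gives about 2 such cases in 40. The ratio was 0.727 for *BAK1* in growing replicate 4 (26.1 CPM, others 12.7 to 16.4 CPM). In RIS replicate 2 it was 0.716 for *BAK1* (11.8 CPM, others 20.6 to 24.2 CPM), 0.688 for *BID* (63.2 CPM, others 98.1 to 114 CPM) and 0.678 for *BCL2L2* (72.6 CPM, others 44.5 to 53.5 CPM). These 4 cases lie in the libraries that went against their labels in the proliferation and secretome genes. The fifth was *PMAIP1* in shHMGA1 replicate 4, at 221 CPM where the other shHMGA1 libraries reached at most 165 CPM (ratio 0.654).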

How the results depend on the processing

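The number of members called in RIS+shHMGA1 against shHMGA1 (2) was 2 or 3 in 10 other settings and 1 to 3 when single libraries were left out, the low value without RIS+shHMGA1 replicate 5. With voom, *MCL1* fell under the fold threshold there (0.51) and *BAK1* (0.64) and *BBC3* (−0.66) passed it. In RIS against growing (0 called) it was 1 with DESeq2, 1 at an FDR of 0.05, and 4 without both departing libraries, with voom, and with the replicate block together with both departing libraries left out, which was added after seeing the data. Leaving out single libraries gave 0 to 2, with 2 without growing replicate 4 and 1 without RIS replicate 2. In RIS+shHMGA1 against RIS (0 called) it was 1 with DESeq2, at an FDR of 0.05, with the replicate block and with the block and both libraries left out, and 0 to 1 without single libraries (1 without growing replicate 4). In RIS+shHMGA1 against growing (1 called) it was 0 with the samples of the comparison only, where *BCL2* failed the filter. It was 3 without both departing libraries (*BCL2*, *BAK1*, *PMAIP1*). It was also 3 with the block on that set, where *BAX* was called in place of *PMAIP1*. It was 4 with voom, and 1 to 3 without single libraries (3 without growing replicate 4).

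The labels link same-numbered libraries by a number alone. The correlation of their deviations ran from −0.594 to 0.828 in RIS against growing. It ran from 0.075 to 0.48 in shHMGA1 against growing and from −0.20 to 0.53 in RIS+shHMGA1 against RIS. It was not above 0.1 for every pair in any comparison. What same-numbered libraries had in common was not tested, so counts over them are descriptions. With the replicate block, *PMAIP1* was called in RIS+shHMGA1 against RIS (log2 fold change 0.65, adjusted p = 0.0067), where all genes gave 1637 calls against 341 without the block, and the count of members called changed in no other comparison.

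Signs changed for 10 of 45 fold changes of the 5 comparisons between groups, none larger than 0.145 in size and none called, and the cause was not tested. Given in the order both departing libraries left out, voom, block with both left out, the changed values were −0.13, −0.028 and −0.087 for *BBC3* in RIS against growing, and 0.13, 0.13 and 0.13 for *BAK1* and 0.12, 0.15 and 0.13 for *BAX* (0.023 with the block alone) in shHMGA1 against growing. *BCL2L1* in RIS against growing was −0.017 without both libraries and −0.00972 with voom. *BAK1* in RIS+shHMGA1 against RIS was −0.019 without both and −0.0090 with the block on that set. With voom, *PMAIP1* in RIS against growing was 0.099 and *BID* in shHMGA1 against growing 0.0052. Without single libraries, *BAK1* ran from −0.019 to 0.16 in RIS+shHMGA1 against RIS and from −0.11 to 0.13 in shHMGA1 against growing, *BAX* from −0.0946 to 0.12 in the latter, *BBC3* from −0.060 to 0.39 in RIS against growing and −0.018 to 0.38 in shHMGA1 against growing, *BCL2L1* from −0.035 to 0.076 and −0.077 to 0.041 in the same pair, and *BID* from −0.14 to 0.0074 in RIS+shHMGA1 against RIS. Of the 9 interactions, 3 changed sign without both departing libraries: *BAK1* from 0.15 to −0.15, *BID* from 0.10 to −0.098 and *BCL2L2* from −0.05 to 0.14.

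Depth limits *BCL2* (0 to 33 counts per library) and *BCL2L11* (1 to 17 counts), for which modest changes could not be seen.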
